A study of Homo sapiens with 12 samples.

Results

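Fascin, LIM and contractile actin genes are described here as 10 genes: FSCN1, PDLIM1, PDLIM5, PDLIM7, TPM1, TPM2, MYL9, TAGLN, CNN2 and ACTB. Every row of the array table that carries 1 of these gene names was taken, which gave 25 of 47228 probes, for 10 of 34599 gene names. Of these, 21 passed the detection filter and were tested, among 24207 tested probes in all. FSCN1 and PDLIM1 were chosen by their large log2 changes with FAK hairpins against shCtrl in these same arrays, and which values the other genes were picked on is not recorded. For these 10 genes, values and counts against the control hairpin are therefore a description, and nothing is read from their tests. The 12 arrays, Illumina HumanHT-12 v4 bead arrays on 1 chip, were 2 for each of 6 groups. The groups combine MIA PaCa-2 or Capan-1, each a line from a human pancreatic adenocarcinoma, with an shCtrl, sh1209 or sh1319 hairpin. The hairpins sh1209 and sh1319 target FAK (gene PTK2), and the Capan-1 labels spell the latter shFAK1319. All groups, controls included, carried a tet-on vector and received doxycycline at 50 ng/ml for 96 h with puromycin, which was 3.5 ug/ml in the MIA PaCa-2 cultures and 1.5 ug/ml in those of Capan-1. Each genotype is therefore 1 cell line with 1 hairpin. Whether the 2 arrays of a group stand for separate cultures is not in the labels, so p-values measure only the spread between these arrays, which may be technical. In RNA from whole cultures, fewer expressing cells and less RNA per cell cannot be told apart.

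Actin filaments give a cell its shape and pull on its adhesions, and FAK is a kinase that signals from those adhesions. Fascin, encoded by FSCN1, ties filaments into the tight parallel bundles of filopodia and invadopodia. The PDLIM genes encode adaptors with a PDZ and LIM domains that dock on alpha-actinin and stress fibres. Tropomyosins (TPM1, TPM2) lie along the filament and govern which proteins bind it. MYL9 is a regulatory light chain of myosin II, the motor that contracts filaments, while transgelin (TAGLN) and calponin 2 (CNN2) bind and stabilise them. ACTB is cytoplasmic beta-actin itself. Many genes of this kind are known targets of the transcription factor SRF and its actin-sensing cofactors MKL1 and MKL2, and SRF binds a motif called the CArG box.

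The promoters of 3 of the genes are shown because CNN2 and TPM1 varied together in MIA PaCa-2, higher with sh1319, while PDLIM1 was higher with both hairpins. RefSeq (GRCh38.p14) gave 7 promoter windows for 6 of the 10 genes, and each was read over the 250 bases before the transcription start, 5′ to 3′ on the gene's strand. Capitals mark a CArG box.
CNN2, chr19:1026358-1026607, plus strand: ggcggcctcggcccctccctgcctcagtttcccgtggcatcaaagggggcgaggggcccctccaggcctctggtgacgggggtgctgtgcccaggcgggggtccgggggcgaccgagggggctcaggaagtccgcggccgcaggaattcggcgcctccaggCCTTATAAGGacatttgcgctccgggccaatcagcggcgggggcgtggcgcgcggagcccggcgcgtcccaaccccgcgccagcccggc
TPM1, chr15:63048239-63048488, plus strand: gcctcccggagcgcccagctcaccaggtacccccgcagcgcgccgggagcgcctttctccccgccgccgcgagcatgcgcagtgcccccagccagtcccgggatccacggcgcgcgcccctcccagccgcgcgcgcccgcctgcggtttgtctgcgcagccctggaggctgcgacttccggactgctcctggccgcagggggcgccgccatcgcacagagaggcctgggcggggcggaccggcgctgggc
PDLIM1, chr10:95291004-95291253, minus strand: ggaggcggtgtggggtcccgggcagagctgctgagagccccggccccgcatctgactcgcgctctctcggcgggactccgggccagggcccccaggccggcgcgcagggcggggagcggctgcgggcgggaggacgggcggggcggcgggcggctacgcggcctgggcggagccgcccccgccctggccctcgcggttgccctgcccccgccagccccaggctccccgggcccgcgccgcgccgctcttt
The CNN2 box began 89 bases before the start, and its centre also spells the letters TATAA. A CArG box on either strand was found in 1 of the 7 windows, against 407 (1.16%) of 35116 RefSeq promoters of the same length. No window was available for FSCN1, MYL9, TAGLN and ACTB, which were therefore not searched, and the windows of TPM2 overlapped one another. The letters GGAATG, bound by TEAD factors, were found on either strand in 0 of the 7 windows and in 11.9% of all promoters. The windows of PDLIM1 (82.8% G or C) and TPM1 (78.4%) were rich in G and C beside a median of 58% over all promoters. These matches describe the letters of the windows and no binding was measured.

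The number of probes detected on an array lay between 16259 and 19814, and the median raw intensity between 87.7 and 97. The PTK2 probe 450253 read 9.45 and 9.46 with shCtrl, 7.28 and 7.14 with sh1209, and 6.92 and 7.03 with sh1319 in MIA PaCa-2, as normalized log2 intensity. In Capan-1 it read 10.35 and 10.17, 9.66 and 9.63, and 8.48 and 8.49, respectively. At this probe PTK2 was lower with each FAK hairpin, and by less with sh1209 in Capan-1. The dim PTK2 probe 2680750 did not show this in MIA PaCa-2, where its means were 5.04 with shCtrl, 5.35 with sh1209 and 4.76 with sh1319, and in Capan-1 they were 5.97, 5.51 and 5.51. Of 6 epithelial markers, 6 were detected on all 6 Capan-1 arrays and 3 (KRT8, KRT18 and MUC1) on all 6 MIA PaCa-2 arrays, where CDH1 was on none. MUC1 counted there through probe 7650026 only, with group means of 5.19 to 5.55 beside 12.07 to 12.73 in Capan-1. Its probe 7200601 was detected on no MIA PaCa-2 array, and 520128 was not on all of them. The mesenchymal marker VIM was detected on all arrays of both lines at probe 830593, which read 13.08 to 13.35 in MIA PaCa-2 and 5.60 to 6.15 in Capan-1. Its other probe, 7050019, had group means of 12.78 to 12.95 in MIA PaCa-2. That probe was not detected on any Capan-1 array, with a mean of 4.4 in each group. Of 6 fibroblast and smooth muscle markers, ACTA2 was detected on all Capan-1 arrays and none of the 6 was on all MIA PaCa-2 arrays. DES, MYH11, PDGFRB, DCN and LUM lay near the background on nearly all arrays, the highest reading being 4.96 for LUM.

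The hairpins were compared with each other in each line, and the difference between the lines was not tested. In MIA PaCa-2, 14 of the 21 tested probes differed between sh1209 and sh1319 at an adjusted p under 0.05, against 22.6% of all tested probes (11.5% higher and 11.2% lower). TAGLN, PDLIM1, TPM1, MYL9, CNN2 and TPM2 were lower with sh1209 at 11 probes, and PDLIM7, PDLIM5 and FSCN1 were higher at 1 probe each. When arrays were scaled to a common median instead of quantile-normalized, 11 were lower and 1 was higher, while the split over all probes moved from 2773 higher and 2705 lower to 1206 and 2271. The median difference was -0.99 over the 21 probes and 0.01 over all tested probes. In Capan-1, 3 of the 21 differed (1 higher and 2 lower with sh1209), against 11.3% of all tested probes (5.81% higher and 5.47% lower), with a median of 0.11 beside -0.01, so the share in Capan-1 was near that of all probes. Without FSCN1 and PDLIM1 the counts were 12 of 19 in MIA PaCa-2 and 2 of 19 in Capan-1. These contrasts use the arrays of the sh1209 and sh1319 groups that also entered the changes against shCtrl, so they are not fully independent of how FSCN1 and PDLIM1 came to be chosen. Which values picked the other genes is not recorded, so the same may hold for them. The adjusted p-values between the hairpins, for each gene below as well, therefore describe the differences and are no independent test.

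**Figure D1:**
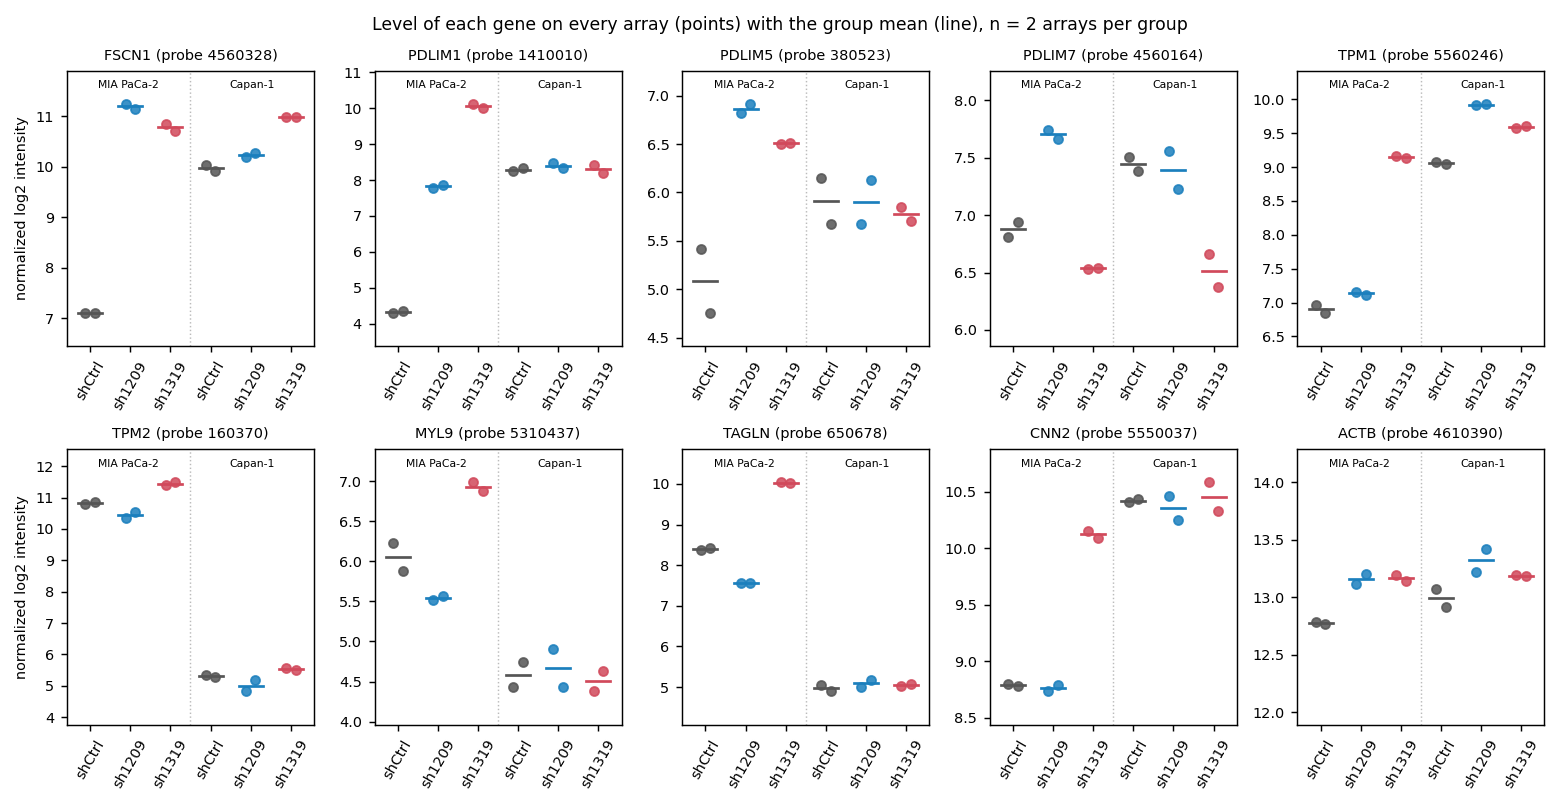
Normalized log2 intensity (vertical axis, scale set per panel) of the brightest probe of each gene in the 6 groups; points are the 2 arrays of a group and the line is their mean. In MIA PaCa-2, FSCN1, PDLIM1 and PDLIM5 lay above shCtrl with both hairpins, as did ACTB by less. TPM1, TPM2, MYL9, TAGLN and CNN2 lay above it with sh1319, and TPM1 slightly so with sh1209 too. TPM2, MYL9 and TAGLN were dim in Capan-1.

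Set against shCtrl, the same genes did not share 1 pattern in MIA PaCa-2. With sh1209, 10 of 21 probes passed the threshold (7 higher, 3 lower), against 18.0% of all tested probes (9.05% higher and 8.99% lower). With sh1319, 17 passed, all of them higher, against 24.3% (12.2% higher and 12.1% lower). In Capan-1 the counts were 3 (3 higher) with sh1209, against 16.8% (8.14% higher and 8.69% lower), and 4 (3 higher, 1 lower) with sh1319, against 13.7% (6.95% higher and 6.77% lower). Because the genes were picked with these contrasts known, nothing is read from these counts. Both hairpins were set against the same shCtrl arrays of a line.

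**Figure D2:**
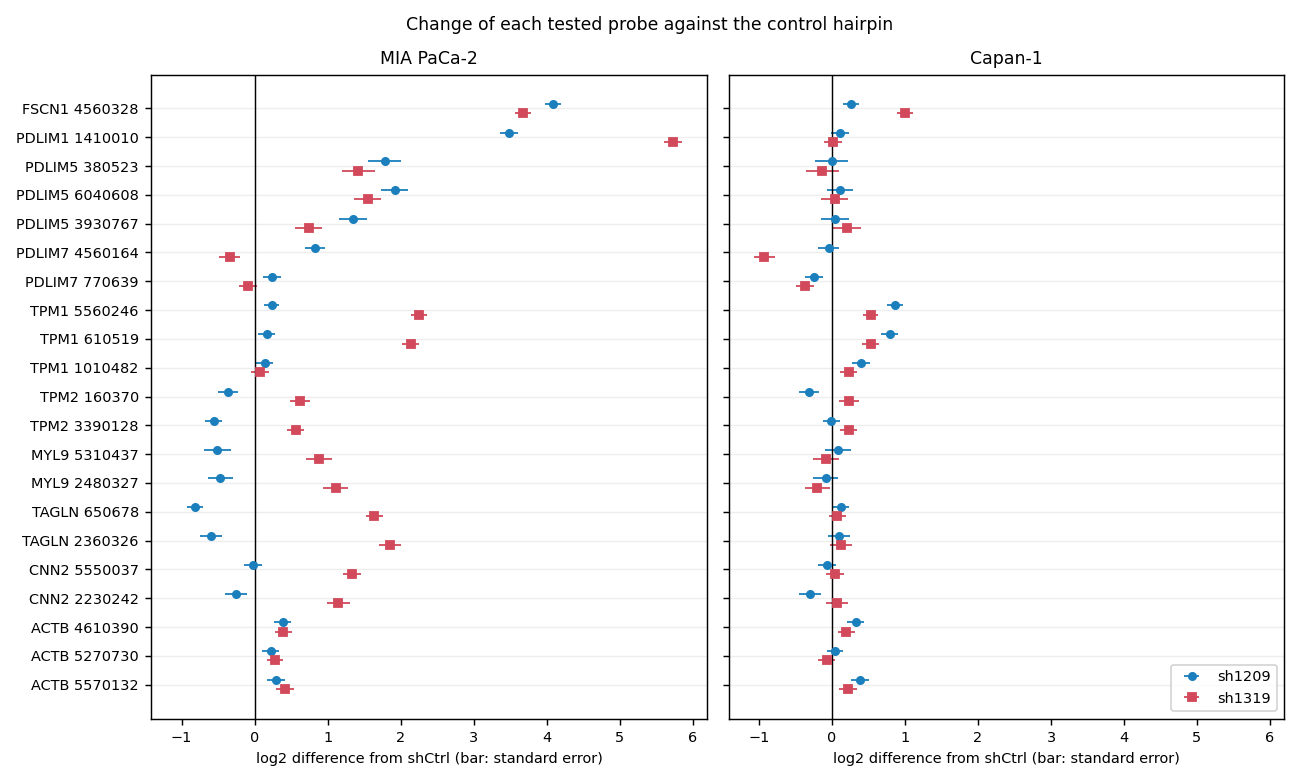
Log2 difference from shCtrl (horizontal axis) of the 21 tested probes in each cell line, with bars of 1 standard error; circles are sh1209 and squares sh1319. In MIA PaCa-2 the symbols lie on the same side of 0 for FSCN1, PDLIM1, PDLIM5, TPM1 and ACTB. They lie on opposite sides for PDLIM7, TPM2, MYL9, TAGLN and CNN2, whereas in Capan-1 most lie near 0.

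FSCN1 was far higher with either FAK hairpin than with shCtrl in MIA PaCa-2. Its probe read 7.11 and 7.11 with shCtrl, 11.24 and 11.15 with sh1209, and 10.85 and 10.72 with sh1319. In Capan-1 the readings were 10.04 and 9.92 with shCtrl, 10.20 and 10.28 with sh1209, and 10.98 and 10.98 with sh1319. None of the 6 groups overlapped with its neighbour in level, and MIA PaCa-2 shCtrl lay far below the rest. The difference from shCtrl in MIA PaCa-2 was 4.09 ± 0.11 (log2 ± SE) with sh1209, which is 17.0-fold, and 3.68 ± 0.11 with sh1319, which is 12.8-fold. In Capan-1 it was 0.25 ± 0.11 and 1.00 ± 0.11. The hairpin with the higher FSCN1 thus changed between the lines. FSCN1 was 0.41 higher with sh1209 than with sh1319 in MIA PaCa-2 (limma, adjusted p = 0.018) and 0.75 lower in Capan-1, at a log2 difference of -0.75 (limma, adjusted p = 0.00128). The former lost its call when MIA PaCa-2 sh1209 replicate 1 (0.36) or sh1319 replicate 2 (0.35) was left out, with median scaling (0.25) or in a fit of MIA PaCa-2 alone (limma, adjusted p = 0.0509). With shCtrl, the MIA PaCa-2 level of FSCN1 was 7.34-fold below that of Capan-1 (log2 difference -2.87, limma, adjusted p = 1.15e-09).

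PDLIM1 was not detected in MIA PaCa-2 with shCtrl and was detected in every other group. Its readings there were 4.30 and 4.36, against 7.77 and 7.87 with sh1209 and 10.11 and 10.01 with sh1319. Capan-1 gave 8.25 and 8.33 with shCtrl, 8.48 and 8.33 with sh1209, and 8.41 and 8.19 with sh1319, 3 groups that overlapped. With sh1209 the MIA PaCa-2 level stayed below that of Capan-1 and with sh1319 it went above it. Between the hairpins the difference was -2.24 in MIA PaCa-2 (sh1209 minus sh1319, limma, adjusted p = 2.47e-07), which is 4.74-fold. In Capan-1 they differed by 0.10 (95% interval -0.17 to 0.37, limma, adjusted p = 0.726). With shCtrl, PDLIM1 in MIA PaCa-2 was at least 12-fold below Capan-1 (limma, adjusted p = 1.66e-10). The bound compares the bright group with the dimmest detected signal on the arrays where PDLIM1 was not detected.

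PDLIM5, which binds alpha-actinin and protein kinase C, had the order of FSCN1 in MIA PaCa-2, with sh1209 highest and shCtrl lowest. Its probe 380523 read 5.42 and 4.75 with shCtrl, 6.82 and 6.91 with sh1209, and 6.50 and 6.51 with sh1319. In Capan-1 it read 6.15 and 5.67, 5.68 and 6.13, and 5.85 and 5.71, respectively. The MIA PaCa-2 shCtrl arrays were the lowest of all, and the 3 Capan-1 groups overlapped. Over the 3 probes of PDLIM5 in MIA PaCa-2, the log2 difference from shCtrl was 1.35 to 1.92 with sh1209 and 0.74 to 1.55 with sh1319. Between the hairpins of MIA PaCa-2, probe 3930767 was 0.61 higher with sh1209 (limma, adjusted p = 0.0387), and the probes 380523 (0.36) and 6040608 (0.37) did not pass. The former call was close to the threshold. It was lost without sh1209 replicate 2 (0.30) or either sh1319 replicate of MIA PaCa-2 (0.67 and 0.54), and with median scaling (0.54). It was also lost without replicate 1 or 2 of Capan-1 shCtrl or sh1209, which left the difference at 0.61. The same held with no filter (limma, adjusted p = 0.0729) and in a fit of MIA PaCa-2 alone (limma, adjusted p = 0.112). With shCtrl, PDLIM5 was lower in MIA PaCa-2 at all 3 probes, by 0.83, 0.94 and 0.60 on the log2 scale, of which the second (limma, adjusted p = 0.00119) held without any 1 array. The first did not pass without MIA PaCa-2 shCtrl replicate 2 (-0.50) or Capan-1 shCtrl replicate 1 (-0.59), and the third also failed without Capan-1 shCtrl replicate 2 (-0.67).

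PDLIM7, an adaptor also known as enigma, was the one gene past the threshold with sh1209 above sh1319 in both lines. At its brightest probe, 4560164, the readings were 6.81 and 6.94 with shCtrl, 7.74 and 7.67 with sh1209, and 6.53 and 6.54 with sh1319 in MIA PaCa-2. Capan-1 gave 7.50 and 7.38, 7.56 and 7.23, and 6.66 and 6.37. In each line the sh1319 arrays were the lowest, and in Capan-1 the sh1209 and shCtrl arrays overlapped. The difference between hairpins was 1.17 in MIA PaCa-2 (limma, adjusted p = 0.00011) and 0.88 in Capan-1 (limma, adjusted p = 0.00219), and both held without any 1 array. The dimmer probe 770639 gave 0.32 and 0.12, neither past the threshold, and was not detected with sh1319 in MIA PaCa-2. The remaining probe, 5870546, was not detected on any array. With shCtrl, PDLIM7 was 0.56 lower on the log2 scale in MIA PaCa-2 (limma, adjusted p = 0.00669), which did not pass without Capan-1 shCtrl replicate 1 (-0.50). At probe 770639 it was lower by 0.36 (limma, adjusted p = 0.0367). That value did not pass with median scaling (-0.41) or without background correction (-0.11), nor without MIA PaCa-2 shCtrl replicate 2 (-0.27), Capan-1 shCtrl replicate 1 (-0.31) or 2 (-0.40), or Capan-1 sh1319 replicate 2 (-0.34).

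**Figure D3:**
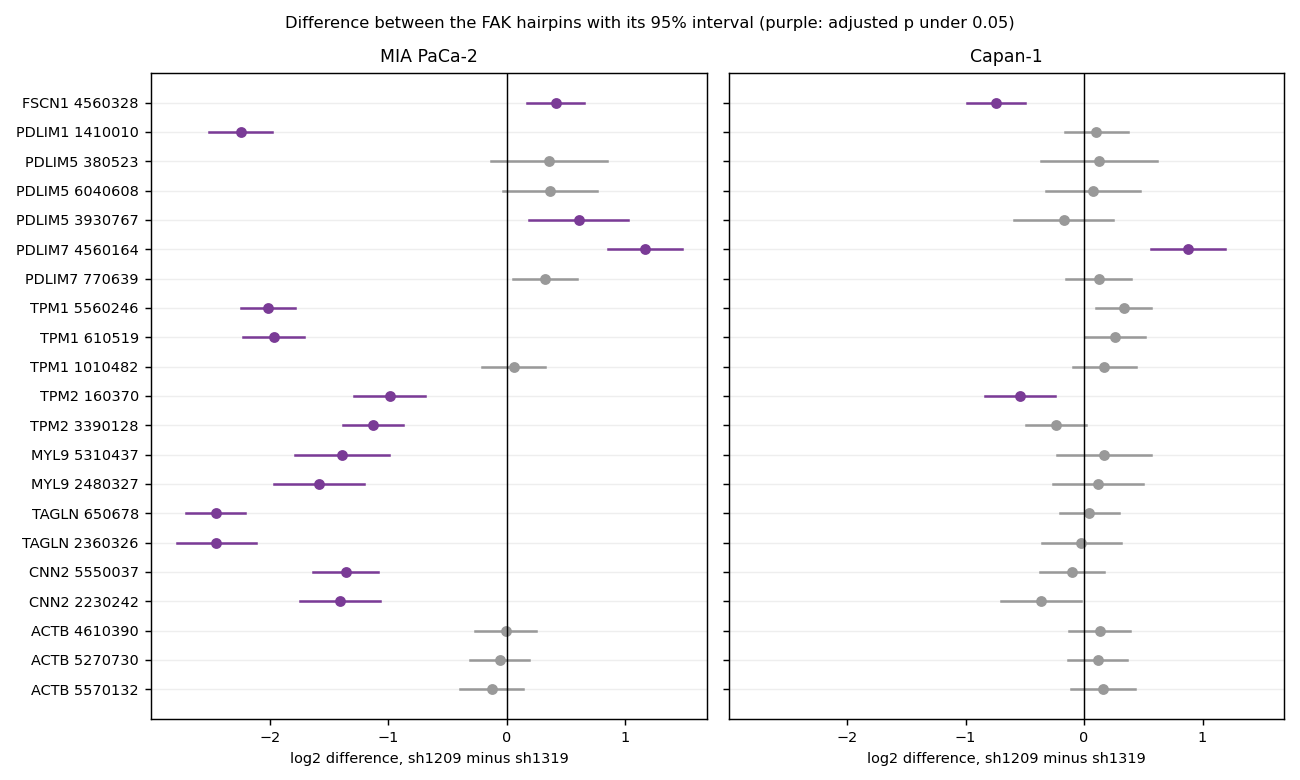
Log2 difference between the FAK hairpins (sh1209 minus sh1319, horizontal axis) for the 21 tested probes in each cell line; points are estimates, bars their 95% intervals, and purple marks an adjusted p under 0.05. In MIA PaCa-2 the contractile genes lie left of 0, down to -2.46 for TAGLN, and PDLIM7 lies at 1.17, while in Capan-1 FSCN1, PDLIM7 and TPM2 are marked.

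The tropomyosins were higher with sh1319 than with sh1209 in MIA PaCa-2. TPM1 probe 5560246 read 6.96 and 6.85 with shCtrl, 7.16 and 7.11 with sh1209, and 9.17 and 9.13 with sh1319. In Capan-1 it read 9.07 and 9.05, 9.91 and 9.93, and 9.58 and 9.60. With sh1319 the MIA PaCa-2 level lay just above that of the Capan-1 control, and no 2 neighbouring groups overlapped. The difference between hairpins was -2.02 (limma, adjusted p = 1.88e-07) in MIA PaCa-2, and -1.97 at probe 610519. In Capan-1, TPM1 lay above shCtrl with both hairpins at both bright probes, at 0.86 ± 0.11 and 0.79 ± 0.12 with sh1209 and 0.53 ± 0.11 and 0.53 ± 0.12 with sh1319. The hairpins differed there by 0.33 (limma, adjusted p = 0.0659), a value that did pass without background correction, with no filter, with a stricter filter and with array weights. With shCtrl, TPM1 in MIA PaCa-2 was 4.47-fold below Capan-1 (limma, adjusted p = 9.84e-09) and 4.61-fold lower at probe 610519. Probe 1010482 was not detected on any MIA PaCa-2 array and probe 2140653 on no array.

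TPM2 was present in MIA PaCa-2 and close to the background in Capan-1, whereas the bright TPM1 probes were detected in both lines and lower in MIA PaCa-2 with shCtrl. Probe 160370 read 10.79 and 10.85 with shCtrl, 10.36 and 10.55 with sh1209, and 11.40 and 11.49 with sh1319 in MIA PaCa-2. The Capan-1 readings were 5.35 and 5.28, 4.82 and 5.18, and 5.58 and 5.51. Every MIA PaCa-2 array lay far above every Capan-1 array, and within each line sh1209 was lowest and sh1319 highest with no overlap. With shCtrl the difference between the lines was 5.51 (limma, adjusted p = 2.81e-11), which is 45.5-fold. Probe 3390128 was not detected in Capan-1 with shCtrl and lay at least 42.3-fold above that in MIA PaCa-2. Between the hairpins, TPM2 differed by -0.99 in MIA PaCa-2 (limma, adjusted p = 0.000266) and by -1.12 at probe 3390128. In Capan-1 probe 160370 differed by -0.54 (limma, adjusted p = 0.0251), but not past the threshold with median scaling (-0.64), without background correction (-0.19), or without Capan-1 sh1209 replicate 1 (-0.36), sh1319 replicate 1 (-0.50) or sh1319 replicate 2 (-0.56). Probe 1230451 was detected on 1 array only.

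Transgelin gave the widest gap between the hairpins among the 10 genes. TAGLN probe 650678 read 8.36 and 8.42 with shCtrl, 7.57 and 7.57 with sh1209, and 10.04 and 10.02 with sh1319 in MIA PaCa-2. In Capan-1 it read between 4.90 and 5.18 in all 3 groups. The MIA PaCa-2 groups did not overlap, with the control between the hairpins. Against shCtrl the log2 difference was -0.82 ± 0.11 with sh1209 and 1.64 ± 0.11 with sh1319, so TAGLN lay below the control with one hairpin and above it with the other. They differed by -2.46 (limma, adjusted p = 8.01e-08), which is 5.49-fold, and by -2.45 at probe 2360326 (limma, adjusted p = 6.83e-07). In Capan-1 the difference was 0.05 (95% interval -0.20 to 0.30). With shCtrl, TAGLN in MIA PaCa-2 was 10.7-fold above Capan-1 (limma, adjusted p = 3.42e-10), and at probe 2360326, not detected in Capan-1, at least 1.99-fold higher. A further probe, 3360326, was not detected on any array.

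MYL9 had the same order in MIA PaCa-2. Its probe 5310437 read 6.22 and 5.88 with shCtrl, 5.51 and 5.56 with sh1209, and 6.98 and 6.88 with sh1319. The 6 Capan-1 readings ran from 4.38 to 4.90, and 3 of them were not above background. In MIA PaCa-2 the hairpin difference was -1.39 (limma, adjusted p = 0.00018) and -1.58 at probe 2480327 (limma, adjusted p = 5.05e-05). Against shCtrl the differences were -0.51 ± 0.18 and -0.47 ± 0.17 with sh1209 and 0.88 ± 0.18 and 1.11 ± 0.17 with sh1319. With shCtrl, MYL9 was 1.46 higher on the log2 scale in MIA PaCa-2 (limma, adjusted p = 3.64e-05).

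CNN2 was higher with sh1319 but not with sh1209 in MIA PaCa-2, where it came near its Capan-1 level. Probe 5550037 read 8.80 and 8.79 with shCtrl, 8.73 and 8.79 with sh1209, and 10.16 and 10.09 with sh1319. Capan-1 gave 10.41 and 10.44, 10.46 and 10.25, and 10.58 and 10.33. The sh1209 and shCtrl arrays of MIA PaCa-2 overlapped, as did the 3 Capan-1 groups. In MIA PaCa-2 the hairpin difference was -1.36 (limma, adjusted p = 1.24e-05) and -1.41 at probe 2230242 (limma, adjusted p = 4.82e-05). In Capan-1 the difference was -0.10 (95% interval -0.37 to 0.17). With shCtrl, CNN2 in MIA PaCa-2 was 3.10-fold below Capan-1 (limma, adjusted p = 5.41e-07) and 1.71-fold lower at probe 2230242.

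ACTB, often taken as a reference gene, had the smallest range over the 12 arrays at the brightest probe of each gene. Probe 4610390 read 12.79 and 12.77 with shCtrl, 13.12 and 13.20 with sh1209, and 13.20 and 13.14 with sh1319 in MIA PaCa-2. The Capan-1 readings were 13.08 and 12.92, 13.22 and 13.42, and 13.20 and 13.18. In both lines the shCtrl arrays were the lowest. The hairpins differed by -0.01 in MIA PaCa-2 (95% interval -0.26 to 0.25) and by 0.13 in Capan-1 (95% interval -0.12 to 0.39). At the other 2 probes the difference in MIA PaCa-2 was -0.06 and -0.13, and 0 of the 3 probes passed in either line, at an unadjusted p under 0.05 as well. With shCtrl, the lines differed by -0.22, -0.19 and -0.29 at the 3 probes, none past the threshold in limma and 1 of 3 at an unadjusted p under 0.05, and the first of these turned to 0.03 with median scaling.

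Between the cell lines with shCtrl, 17 of the 21 probes differed, 6 higher and 11 lower in MIA PaCa-2, against 42.1% of all tested probes (22.5% higher and 19.6% lower). TPM2, TAGLN and MYL9 were the genes higher in MIA PaCa-2, and PDLIM1, FSCN1, TPM1, CNN2, PDLIM5 and PDLIM7 those lower. The median difference was -0.36 over the 21 probes and 0.04 over all. Without FSCN1 and PDLIM1 the count was 15 of 19. The shCtrl arrays also entered the changes on which FSCN1 and PDLIM1 were chosen, and what picked the other genes is not recorded. The adjusted p-values between the lines, here and above, are therefore a description and no independent test. The 3 genes with the lower level in Capan-1 lay near the background there, where the log2 scale with an offset of 16 understates changes.

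**Figure D4:**
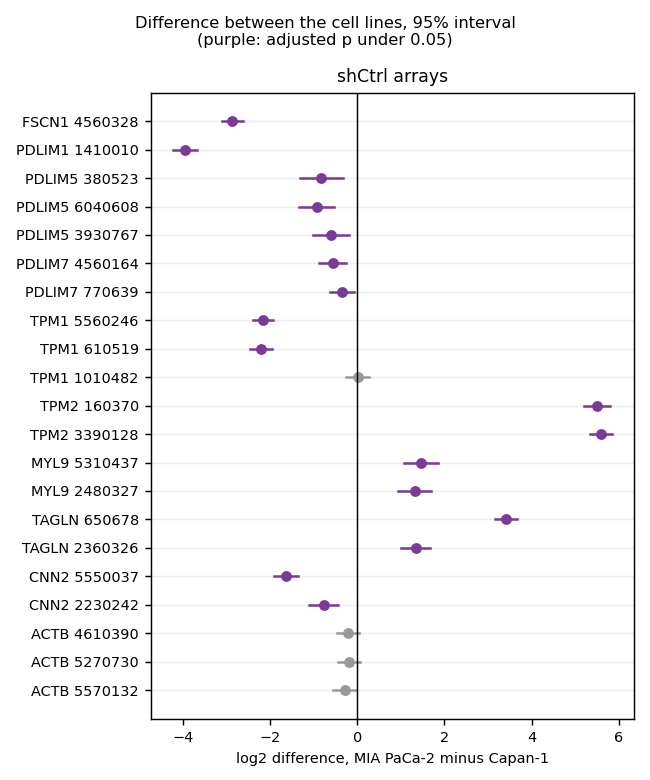
Log2 difference between the cell lines with shCtrl (MIA PaCa-2 minus Capan-1, horizontal axis) for the 21 tested probes; points are estimates, bars their 95% intervals, and purple marks an adjusted p under 0.05. TPM2 reaches 5.60 and PDLIM1 -3.96, and the 3 ACTB probes are unmarked.

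The mean change over both hairpins was more positive in MIA PaCa-2, set against Capan-1, at 9 probes, against 14.4% of all tested probes in either direction and 7.24% in this one (7.11% in the other). At 0 probes was it less positive (limma), at an unadjusted p under 0.05 as well. FSCN1 (3.26 ± 0.14, difference of log2 changes ± SE) and PDLIM1 (4.55 ± 0.15) were known to differ in this way, and without them 7 of 19 probes passed. The contrast is built from the changes against shCtrl, and which values picked the other genes is not recorded, so the counts and values are a description and no test is read from them. They were PDLIM5 at 3 probes (1.67, 1.66 and 0.92), PDLIM7 (0.73), TPM1 at 2 probes (0.55 and 0.49) and CNN2 (0.67). With median scaling 4 of the 9 passed, FSCN1, PDLIM1 and PDLIM5 at 2 probes, whereas without background correction the count was 13. Over all tested probes the share was 7.58% with median scaling and 19.3% without background correction. Single arrays also mattered for PDLIM5 at probe 3930767, which failed without MIA PaCa-2 shCtrl replicate 2 (0.78) or Capan-1 shCtrl replicate 1 (0.85) or 2 (0.99), and for TPM1 at probe 610519, which failed without almost any 1 array (0.44 to 0.55). PDLIM7 failed without replicate 1 of shCtrl in MIA PaCa-2 (0.66) or Capan-1 (0.67), TPM1 at probe 5560246 without MIA PaCa-2 shCtrl replicate 2 (0.49) or Capan-1 shCtrl replicate 1 (0.54), and CNN2 without Capan-1 shCtrl replicate 2 (0.66). For TAGLN, TPM2 and MYL9 no probe passed in limma with background correction and all arrays. Both TAGLN probes passed without background correction (0.38 and 0.33), TAGLN probe 2360326 also without MIA PaCa-2 shCtrl replicate 1 (0.77), and MYL9 probe 2480327 without MIA PaCa-2 sh1209 replicate 2 (0.60). For these 3 genes the hairpins had opposite signs in MIA PaCa-2, which a mean over hairpins cancels in part.

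Over the 6 MIA PaCa-2 arrays, the levels of TAGLN, TPM2 and MYL9 varied together, with Pearson's r of 0.988 for TAGLN with TPM2, 0.980 for TAGLN with MYL9 and 0.965 for TPM2 with MYL9. TPM1 and CNN2 correlated at 0.992, and FSCN1 correlated at 0.964 with PDLIM5 and at 0.098 with TAGLN. In the 6 Capan-1 arrays the same pairs gave 0.042, -0.532, -0.682, -0.240, -0.205 and 0.277. These are descriptions over arrays that share groups. Over all 12 arrays, the probes of other genes most like FSCN1 were those of GATAD2A (r = 0.978), SH3RF2 (0.969) and BAMBI (0.950). For PDLIM1 they were IGFBP4, SFN and MANBA (0.961 each), and for TAGLN OSTM1 (0.997), DYRK3 (0.994) and SNX4 (0.991).

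Other genes of the actin machinery, 79 in 6 lists that were drawn up with earlier results known, moved in both directions. The genes named below were picked by the size or sign of these same differences, so their adjusted p-values describe them and are no independent test. Of the 79, 69 could be tested, at the brightest probe of each. With sh1209 in MIA PaCa-2, 22 differed from shCtrl (12 higher, 10 lower), and with sh1319, 28 (18 higher, 10 lower). In Capan-1 the counts were 14 with sh1209 (8 higher, 6 lower) and 17 with sh1319 (6 higher, 11 lower). In these comparisons the listed genes passed at 31.9%, 40.6%, 20.3% and 24.6%, against 18.0%, 24.3%, 16.8% and 13.7% of all tested probes, which include several probes for many genes. These shares are not alike, since all tested probes include many dim ones. With the stricter filter (p under 0.01 on 4 arrays), 24, 29, 14 and 18 of 60 listed genes passed. Of all probes that met this filter, 28.3%, 36.7%, 28.2% and 24.6% passed. With median scaling the Capan-1 counts became 5 higher and 1 lower with sh1209, and 6 higher and 1 lower with sh1319. All tested probes tilted the same way under that scaling. They split into 2009 higher and 450 lower with sh1209, and 1936 higher and 334 lower with sh1319. The median of the 69 differences lay between 0.01 and 0.08 in the 4 comparisons, beside -0.01 to 0.01 over all tested probes. The count for sh1209 in MIA PaCa-2 was 12 without shCtrl replicate 1 or sh1209 replicate 2 and 14 without shCtrl replicate 2, and that for sh1319 was 18 without shCtrl replicate 1. In Capan-1, leaving out any 1 of the 4 arrays compared took the counts to between 5 (sh1209, without shCtrl replicate 2) and 9 (sh1319, without sh1319 replicate 2).

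Among actins and filament regulators, ACTA2, the smooth muscle actin, was the gene of the lists that passed with the same sign in all 4 comparisons. It read 4.36 and 4.31 with shCtrl, not above background, 5.79 and 5.69 with sh1209, and 7.15 and 7.17 with sh1319 in MIA PaCa-2. ACTA2 was therefore at least 2.04-fold higher with sh1209 (limma, adjusted p = 6.88e-06) and at least 5.47-fold higher with sh1319 (limma, adjusted p = 1.61e-08). In Capan-1 it rose by 0.44 (limma, adjusted p = 0.0208) and 0.55 (limma, adjusted p = 0.00779). The smaller of these did not pass without Capan-1 shCtrl replicate 2 (0.35) or sh1209 replicate 1 (0.49) or 2 (0.39), and the larger without shCtrl replicate 2 (0.46) or sh1319 replicate 1 (0.52). GSN, a severing protein, was not detected with sh1319 in MIA PaCa-2 and was at least 2.1-fold lower there than with shCtrl (limma, adjusted p = 0.000402). With sh1209 in that line GSN lay above the control instead, at 6.32 and 6.83 beside 5.62 and 5.93 with shCtrl. In this list of 24 genes (22 tested), 4 rose and 2 fell with sh1209 and 6 rose and 2 fell with sh1319 in MIA PaCa-2.

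LIM domain proteins beyond the PDLIM genes above split evenly, with 5 of 20 higher and 5 lower with sh1209 in MIA PaCa-2, and 5 and 4 with sh1319. LIMA1, which crosslinks filaments, rose by 1.49 and 1.13 (limma, adjusted p = 1.69e-05 and 8.46e-05). PDLIM3, a relative of PDLIM1, fell by 1.82 and 1.77 (limma, adjusted p = 8.42e-07 and 6.99e-07). In Capan-1 2 of 20 rose and 2 fell with sh1209, and 2 rose and 3 fell with sh1319, led by ABLIM3 at 0.93 and 1.37 (limma, adjusted p = 0.000265 and 3.62e-05). PDLIM1 and PDLIM3 thus moved in opposite directions in MIA PaCa-2.

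Of 5 tested tropomyosins, calponins and transgelins, 4 passed with either hairpin in MIA PaCa-2, 2 higher and 2 lower with sh1209 and 3 higher and 1 lower with sh1319. CNN3, the non-muscle relative of CNN2, was not detected with either and was lower by at least 2.77-fold (sh1209) and 2.7-fold (sh1319) (limma, adjusted p = 1.42e-05 and 8.04e-06). CALD1, caldesmon, rose by 0.56 and 1.15 (limma, adjusted p = 0.00714 and 3.08e-05), of which the former did not pass with median scaling (0.63). In Capan-1 the list gave 0 higher and 2 lower with sh1209 (TPM3 by -0.88, not past the threshold with median scaling) and 1 and 1 with sh1319. Of 13 tested genes of myosin II and its regulators, 1 fell with sh1209 in MIA PaCa-2, and 2 rose and 2 fell with sh1319. PPP1CB, a catalytic subunit of myosin phosphatase, fell by 1.05 and 2.02 (limma, adjusted p = 0.00119 and 5.46e-06), and MYH9, a myosin II heavy chain, rose by 1.28 with sh1319 (limma, adjusted p = 2.9e-05). In Capan-1 this list gave 2 higher with sh1209, and 1 higher and 2 lower with sh1319.

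Filament bundlers, the class of fascin, passed at 1 of 7 tested genes with sh1209 and at 3 of 7 with sh1319 in MIA PaCa-2. PLS3, a plastin, rose by 0.98 with sh1319 (limma, adjusted p = 0.000613). In Capan-1, 2 rose and 1 fell with sh1209, and 1 rose and 2 fell with sh1319. PLS1 fell by 0.90 and 0.93 (limma, adjusted p = 0.00305 and 0.00313), ACTN1 rose by 0.97 with sh1209 (limma, adjusted p = 0.000336) and LCP1 rose by 0.68 with sh1319 (limma, adjusted p = 0.00457). The 2 tested genes among SRF and its cofactors, SRF (-0.14 to 0.19) and MKL2 (-0.01 to 0.19), gave adjusted p-values of 0.365 or more (limma) in the 4 comparisons. The largest rise or fall of a list was at times one that did not pass once some single array was left out. Examples were ACTN4, DIAPH1 and LCP1 in MIA PaCa-2, and TES, MYH14, VCL, FHL1, CNN3, TAGLN2 and PPP1CB in Capan-1.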

How the data were processed

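RNA of the 12 samples (500 ng each) was hybridised to Illumina HumanHT-12 v4 arrays, and the submitters' processing notes name GenomeStudio 2011.1. Probe intensities deposited by the authors were linear, without background subtraction or normalization. The authors also deposited a detection p-value for each probe and array. The table has 47320 rows and 28 columns with no values, and 92 spike-in controls were left out after background correction.

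Intensities were corrected with limma's nec function (normexp from the detection p-values, offset 16), put on the log2 scale and quantile-normalized. Probes with a detection p under 0.05 on at least 2 of 12 arrays were tested. limma 3.58.1 in R 4.3.3 fitted 6 group means (6 residual degrees of freedom) with lmFit and eBayes, with Benjamini-Hochberg adjustment over all 24207 tested probes of each comparison, at a threshold of 0.05. Precision is limited by there being 2 arrays a group. Samples were grouped by their labels. The genes, the lists of 79 actin-related genes and the marker lists were chosen with earlier results of these data known. In each list and comparison, the text names genes that passed with 1 sign in all 4 comparisons against shCtrl, or else the largest rise and fall that passed. For 1 of the genes that this rule names, the result is not reported here. Gene names are those of the table, and all 10 matched a current RefSeq symbol. A bound on a fold was taken where a probe was undetected on both arrays of a group.

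When tested on simulated data, in which 200 of 24207 probes were changed by a log2 difference of 1.5 between sh1209 and sh1319 in MIA PaCa-2, the fit recovered 94.5%, with 4.55% false calls. For an interaction of 0.75 it recovered 28%, with 6.67% false calls. Alternatives tried were median scaling, uncorrected intensities, a stricter or no detection filter (stricter: p under 0.01 on 4 arrays), array weights, a replicate block, a fit of 1 cell line, a minimum log2 difference of 1, the 2-tailed unpaired test of the methods, and leaving out each array.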

Additional observations from a re-analysis of the deposited data

Results flagged for a closer look

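The change with FAK hairpins, averaged over both, differed between the cell lines by an interaction term at 9 of the 21 tested probes, all with the more positive change in MIA PaCa-2. Over all tested probes the share was 14.4% in either direction and 7.24% in this one. The difference of log2 changes was 4.55 for PDLIM1 and 3.26 for FSCN1, which were already known to differ. For PDLIM5 it was 1.67 at probe 380523, 1.66 at probe 6040608 and 0.92 at probe 3930767. It was 0.73 for PDLIM7 at probe 4560164, 0.67 for CNN2 at probe 5550037, and 0.55 and 0.49 for TPM1 at probes 5560246 and 610519. These values describe genes chosen with the changes against shCtrl known. At PTK2 probe 450253, sh1209 gave log2 differences from shCtrl of -2.24 (MIA PaCa-2) and -0.61 (Capan-1), whereas sh1319 gave -2.48 and -1.78 for the same lines, and the part of PTK2 in the values above was not tested.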

How the results depend on the processing

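Of the 4 counts for the 10 genes, those between the hairpins in MIA PaCa-2 (14) and Capan-1 (3) and between the lines (17) stayed within 1.5 times of these values under other filters, scaling, array weights and background correction, and the interaction count (9) was 4 with median scaling. Over all tested probes the interaction share was 14.4%, and 7.58% with median scaling. Median scaling shifted the median of all probes by 0.11 for sh1319 in Capan-1. The count of actin-related genes past the threshold became 10 with sh1209 in MIA PaCa-2 (22 before). In Capan-1 it became 6 with sh1209 (14 before) and 7 with sh1319 (17 before). In the same comparisons 9.27%, 10.2% and 9.38% of all tested probes passed with median scaling, beside 18.0%, 16.8% and 13.7% before. A fit of MIA PaCa-2 alone gave 11 actin-related genes for sh1209 there. Asking also for a log2 difference of at least 1 left 11 between the lines, 4 for the interaction and 0 between the hairpins in Capan-1, where the limma calls were all smaller than 1, and 6, 8, 0 and 1 for the actin-related genes in the 4 comparisons with shCtrl. The methods' 2-tailed unpaired test gave 8 between the lines after Benjamini-Hochberg adjustment and 0 elsewhere, beside 15 (MIA PaCa-2) and 3 (Capan-1) between the hairpins and 22, 25, 18 and 19 actin-related genes at an unadjusted p under 0.05. The cause was not tested. Leaving out 1 array in turn gave 12 to 14, 2 to 3, 13 to 17 and 5 to 9 for the 4 counts, and 12 to 19, 18 to 28, 5 to 13 and 6 to 17 for the actin-related genes. At the brightest probe of each gene, the sign turned only in differences that had not passed. ACTB turned to 0.0283 between the lines with median scaling and ranged from -0.0532 to 0.0354 between the hairpins of MIA PaCa-2 when 1 array was left out. Between the hairpins of Capan-1, leaving out 1 array gave -0.0091 to 0.2137 for PDLIM1, -0.1008 to 0.3562 for PDLIM5, -0.0686 to 0.3825 for MYL9, -0.0423 to 0.1332 for TAGLN and -0.2281 to 0.0245 for CNN2. With the replicate number as a block, the counts were 14, 3, 17 and 9, and 20, 27, 12 and 18. The labels share replicate numbers across groups, and they end in the letters A to F for replicate 1 and G to L for replicate 2. Deviations of same-numbered arrays correlated at -0.061 to 0.16 over 15 pairs of groups. This cannot show whether same-numbered arrays shared more than a number. The block moved no count by over 1.5 times. Comparisons of cell lines have no fit of 1 line, and the methods' test takes no interaction. Signals near background, as for MYL9 and TPM2 in Capan-1, limit what could be seen there.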
